A study of Homo sapiens with 2 samples.

Results

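The clustered protocadherins are cell surface adhesion proteins encoded by neighbouring genes in an alpha, a beta and a gamma cluster on human chromosome 5. Members were taken as the probe sets annotated to a PCDHA, PCDHB, PCDHGA, PCDHGB or PCDHGC gene with a number, PCDHAC1 and PCDHAC2 included. The array held 43 probe sets annotated to a single such gene and 10 annotated to several of them. The single-gene probe sets stood for 33 of the 19775 genes named on the array, and for 33 of the 53 protein-coding genes that RefSeq lists in the clusters. Another 14 of the 53 were named on shared probe sets only, and the array signals of PCDHGA2, PCDHGA7, PCDHGB1, PCDHGB2, PCDHGB3 and PCDHGB4 are not analysed here.

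The study compared SK-N-MC cells, a human line that the submitters call a neuroepithelioma and that is classed today with Ewing tumours, with and without extra melanotransferrin, a membrane-bound relative of the iron carrier transferrin. The control array carried RNA of stably transfected cells with the pCMV-Script vector (vector control number 1). The other array carried RNA of stably transfected cells with human melanotransferrin cDNA cloned into that vector, which drives it from a viral promoter (hyperexpression clone 4). Each group was 1 array, so no value below has a replicate SD and no difference between the groups could be tested. The inserted gene and the difference between these particular transfected lines cannot be told apart.

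In the alpha and gamma clusters each variable exon has its own promoter and encodes the extracellular, transmembrane and adjacent cytoplasmic part of a protein. It is spliced to constant exons shared by the whole cluster, which encode the common end of the cytoplasmic tail. Beta genes have no constant exons and each encodes a whole protein. The proteins bind copies of themselves on neighbouring cells. In neurons, individual cells use different sets of these promoters, which gives cells distinct surface identities. Most of these promoters hold a short conserved element with the core CGCT, and the factor CTCF binds there.

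The promoter elements are shown first because they show which bases the members share around the core and which differ between them. RefSeq (GRCh38.p14) windows of 250 bases before to 50 after the annotated start were available for 47 of the 53 genes, all on the plus strand, with more than 1 window for 5 genes. In each line below 30 bases run 5′ to 3′ and the capitals mark the CGCT core. The beta genes shown include the member with the largest ratio, others that read higher or lower in the clone, and PCDHB15 and PCDHB1, whose signals were low on both arrays.
PCDHB5 (chr5:141135182-141135211): ggacgcctggtggCGCTgcaggctaagagt
PCDHB16 (chr5:141182313-141182342): gaacgcgtggtggCGCTgcaggttaagatg
PCDHB14 (chr5:141223266-141223295): agacacatggtggCGCTacaggataagacg
PCDHB12 (chr5:141208646-141208675): agacgcgtggtggCGCTgcaggataatatc
PCDHB4 (chr5:141121726-141121755): agacgcagggtggCGCTgcaggctaagttg
PCDHB2 (chr5:141094547-141094576): agacgcggggtggCGCTgcagccttagaag
PCDHB15 (chr5:141245317-141245346): caacgcatggtggCGCTgcaggctaaggct
PCDHB1 (chr5:141051256-141051285): ctattaatacattCGCTagactggggagtt
The alpha genes shown are a member with a signal in the clone and a member without signal above the floor on either array. The gamma genes shown are PCDHGA4 and PCDHGA8, which read higher in the clone, and PCDHGA1 and PCDHGA3, which read lower.
PCDHA5 (chr5:140821545-140821574): atccacatgatgtCGCTggacaccggaagg
PCDHA10 (chr5:140855844-140855873): agccaccggatgtCGCTgtcgtccacaaaa
PCDHGA4 (chr5:141354963-141354992): agactctgggtgtCGCTgttcaccaatcag
PCDHGA8 (chr5:141392571-141392600): ggactgtaagcgcCGCTgttcacctactgg
PCDHGA1 (chr5:141330406-141330435): ggactgtgggcgcCGCTgttcactaatctg
PCDHGA3 (chr5:141343770-141343799): ggcctcttagtgtCGCTgttgaccactcaa

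The bases around the core were shared unevenly between the clusters. The word GTGGCGCT stood in 13 of 14 beta genes, in 0 of 13 alpha genes and in 0 of 20 gamma genes. PCDHB1 is the beta gene without it. The capitals in its line mark the first CGCT of its window, 105 bases before the start, and another lies 84 before. Across all 35116 RefSeq windows of the same length, 1.15% held it on either strand. TGTCGCT stood in 10 of 13 alpha genes, 1 of 14 beta genes and 3 of 20 gamma genes, against 1.76% of all windows. GCCGCTGT stood in 11 of 20 gamma genes, 0 of 13 alpha genes and 0 of 14 beta genes, against 1.63% of all windows. Each longer word contains the core, and all were searched on both strands after these windows had been read. The core alone is common, in 70.0% of all windows on either strand and in 54.3% on the strand as written. On the plus strand, as written here, 46 of the 47 genes held it. PCDHA9 did not hold it in its window. In the beta genes the core of GTGGCGCT began between 79 bases before the start (PCDHB4) and 3 bases after it (PCDHB8), with a median of 61 before. PCDHB15, with low signals on both arrays, and PCDHB5, with the largest ratio, held the same GTGGCGCT word, so its presence did not separate them. These genes are related copies, so their matches are not independent.

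**Figure D1:**
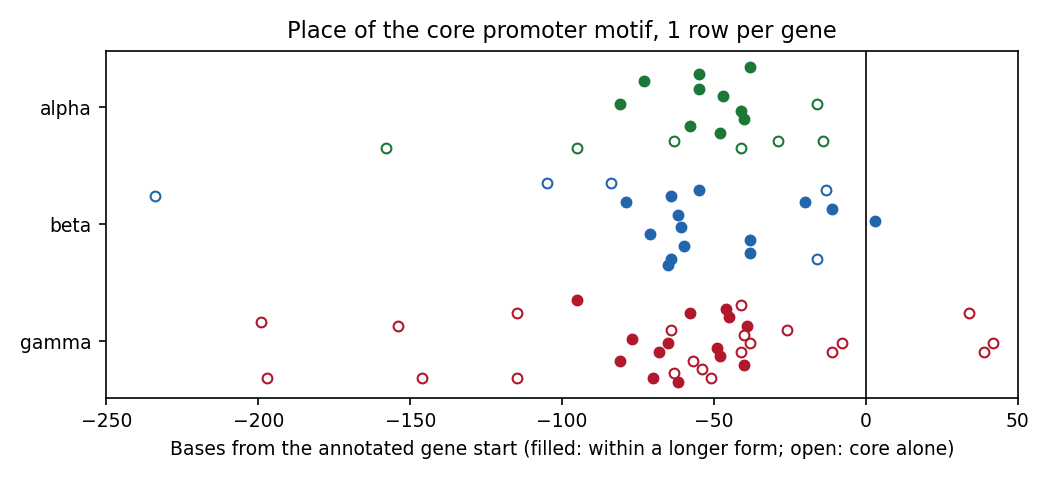
Place of each CGCT core in the promoter windows, in bases from the annotated gene start on the x axis, with genes spread vertically within their cluster and, for genes with several windows, the first window shown. Filled points lie within one of the longer words and open points are the core alone; the beta cores of GTGGCGCT lie between 79 bases before the start and 3 after it.

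Whole windows are printed for the genes past 2-fold, with CGCT in capitals. The window of PCDHB5 holds the core once, 11 bases before the start, and that of PCDHGA4 holds it once, 45 bases before.
PCDHB5 (chr5:141134956-141135255, plus strand): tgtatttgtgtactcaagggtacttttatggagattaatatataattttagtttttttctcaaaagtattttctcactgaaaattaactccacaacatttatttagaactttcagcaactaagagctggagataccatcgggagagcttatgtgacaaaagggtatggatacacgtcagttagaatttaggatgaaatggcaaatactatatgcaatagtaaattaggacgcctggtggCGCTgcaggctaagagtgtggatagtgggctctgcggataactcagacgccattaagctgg
PCDHGA4 (chr5:141354771-141355070, plus strand): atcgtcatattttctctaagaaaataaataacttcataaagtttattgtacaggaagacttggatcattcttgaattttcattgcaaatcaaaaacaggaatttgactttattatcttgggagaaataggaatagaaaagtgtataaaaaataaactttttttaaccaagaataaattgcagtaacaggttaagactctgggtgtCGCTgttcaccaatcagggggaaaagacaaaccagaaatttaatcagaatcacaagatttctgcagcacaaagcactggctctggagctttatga

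The deposited values are linear probe set signals. A floor of 208 was set at the 90th percentile of 191 probe sets, over both arrays, for genes this cell type should not express (smell and bitter taste receptors and keratin-associated proteins of hair). A gene was counted as measured when the brightest of its own probe sets, by mean signal, reached the floor on either array. A ratio with 1 array below the floor was taken against the floor and is a bound, written "at least". The floor probe sets had median signals of 67.4 in the control and of 44.0 in the clone. Melanotransferrin (MELTF) read 18.4 and 4449.4 on the probe set annotated to the inserted transcript, at least 21.4-fold higher. Its other 3 probe sets read 245.8 and 209.3, 64.4 and 125.5, and 19.2 and 10.8. Of the Ewing tumour markers CD99, NKX2-2, STEAP1, PRKCB, CCND1 and EWSR1, all 6 were above the floor on both arrays. NR0B1, also listed, had no value. Of 8 neuronal markers 3 were measured. TUBB3 read 16504 and 16831.8, GAP43 read 2613.3 and 1418.7, and SNAP25 read 518.8 and 398.8. The sympathetic enzymes TH and DBH, and STMN2, PHOX2A and RBFOX3, lay below the floor in each line. The markers of other cell types that were measured numbered 2 of 4 for melanocytes, 5 of 6 for fibroblasts, 2 of 5 for epithelium, 1 of 4 for leukocytes and 2 of 4 for endothelium. Among these, the fibroblast COL1A1 read 15581.8 and 10279.1, and the leukocyte PTPRC read 15581.1 and 13942.6. KRT8 (lower) and CDH5 (higher) were the markers past 2-fold. RNA was taken from whole cultures, so fewer cells using a promoter and less RNA per cell cannot be told apart.

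Signal from the protocadherin clusters was found on both arrays. Of the 33 genes with a probe set of their own 19 were measured, against 64% of all named genes. By cluster these were 2 of 6 alpha genes, 11 of 15 beta genes and 6 of 12 gamma genes. Of the 43 single-gene probe sets 23 reached the floor on either array, against 58.4% of all single-gene probe sets. Of the 19 measured genes 13 reached the floor on both arrays, 4 on that of the clone only and 2 on that of the control only. The background shares were 3.49% for the clone array only and 11.3% for the control array only. These counts say where a probe set gave signal; levels are not compared between genes, because probe sets differ in response.

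Of the 19 measured genes 2 passed 2-fold higher in the clone and 0 passed 2-fold lower. Among all 12663 measured genes 1.21% passed 2-fold higher and 1.9% lower. Within the members' range of mean signal, 150.05 to 2090.6, the shares were 1.83% and 3.24%. The median log2 ratio of the 19 genes was 0.30, and that of all measured genes was -0.022. With the clone array rescaled so that the hybridisation spikes agreed, 975 genes passed 2-fold higher and 92 lower, against 153 and 240 as deposited. Rescaled on the poly-A spikes, the counts were 13 and 1237. These rescalings placed the median of all genes at 0.46 and -0.57, so directions here hold against all other genes after scaling to an equal mean. The protocadherin median stayed above that of all genes in each setting run, by 0.16 to 0.38.

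**Figure D2:**
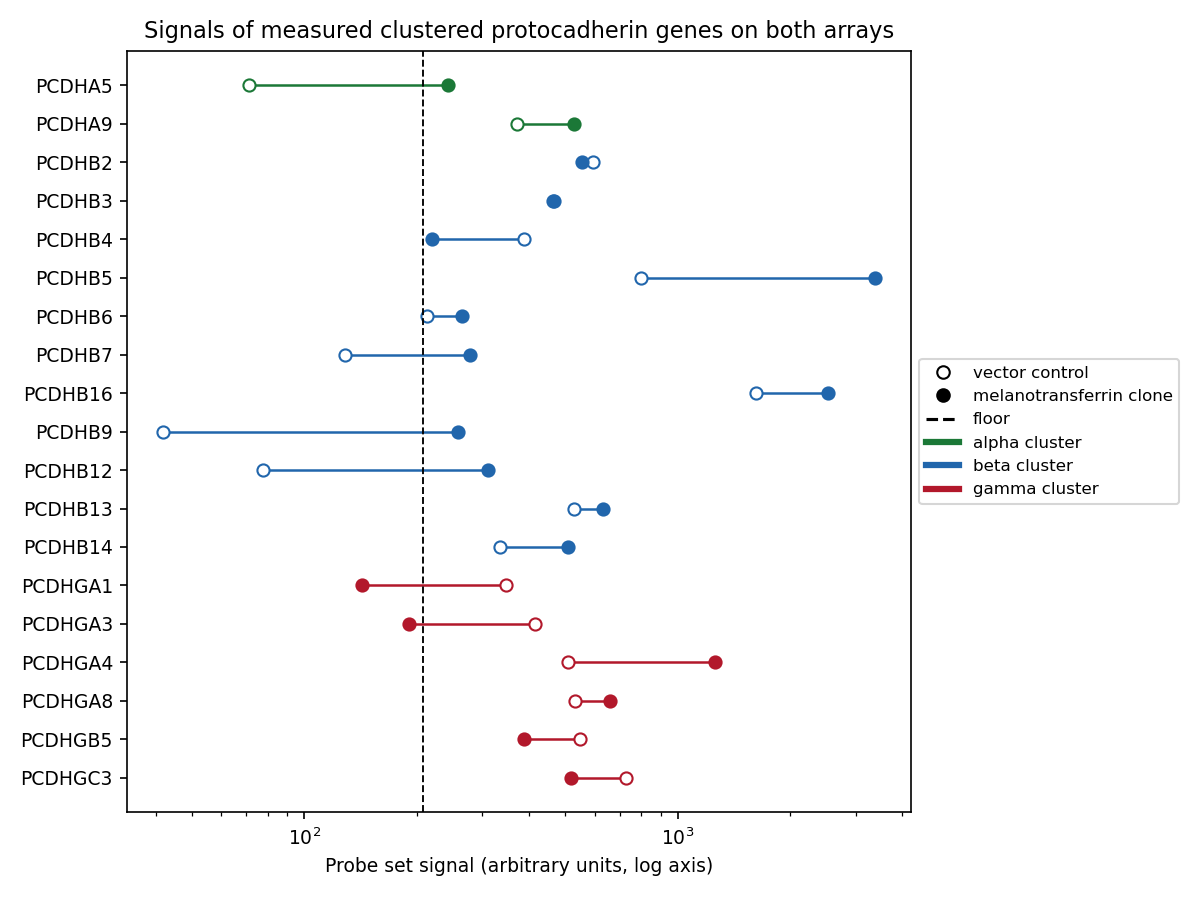
Signal on a log axis of each of the 19 measured genes in chromosome order, open for the vector control and filled for the melanotransferrin clone, 1 array each; the dashed line is the floor of 208. PCDHB5 (797.4 and 3383.8) and PCDHGA4 (507.5 and 1255.7) show the widest gaps among genes that reached the floor on each array.

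The beta cluster held the largest difference. PCDHB5, a beta protocadherin that like its neighbours forms adhesive contacts between like cells, read 797.4 in the vector control and 3383.8 in the clone. Both arrays were well above the floor, and the ratio was 4.24-fold higher, a log2 ratio of 2.09. The probe set carries neither of the suffixes that mark sequence shared with other transcripts. No replicate exists to set this against. The spread available was that between probe sets of the same gene, a pooled SD of 0.35 on the log2 scale over 5387 genes, and 0.38 over the 3503 genes whose dimmest probe set was under 1000. That spread leaves out differences between cultures and between transfected lines. PCDHB5 has 1 probe set, so its value was not repeated within the arrays. Over the settings run its log2 ratio lay between 1.48, rescaled on the poly-A spikes, and 2.59, on the hybridisation spikes. The other floors and choices of probe sets could not change it.

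The other beta genes differed less. PCDHB16 read 1616.5 in the vector control against 2521.4 in the clone, 1.56-fold higher. PCDHB14 read 335 and 508.9, 1.52-fold higher. PCDHB13 read 528.2 and 632.2, a log2 ratio of 0.26, on a probe set with a suffix that marks shared sequence. Its other probe set, without such a suffix, read 98.7 and 19.8, lower in the clone and below the floor on both arrays. PCDHB6 read 213 and 264.5, 1.24-fold higher, also with such a suffix, and 177.8 and 251.1 on its second probe set. By their brightest probe sets these 4 genes were above the floor on both arrays and none reached 2-fold. The log2 ratios of PCDHB13 and PCDHB6, 0.26 and 0.31, were within the SD between probe sets of a gene, and those of PCDHB16 and PCDHB14, 0.64 and 0.60, exceeded it. That SD is not the error of a ratio between 2 cultures. Rescaled on the poly-A spikes PCDHB16 and PCDHB14 read 0.031 and -0.0069, and on the hybridisation spikes 1.14 and 1.10.

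PCDHB12 read 77.6 and 311.5, PCDHB9 read 41.9 and 258.2, and PCDHB7 read 129 and 277.4. These genes were below the floor in the control and above it in the clone, and were at least 0.58, 0.31 and 0.42 higher, in that order, on the log2 scale. The floor probe sets moved the other way between the arrays. Such bounds leave the true ratios unknown above them. With a lower floor of 116.9, the 75th percentile, all 3 passed 2-fold. For PCDHB9, a probe set shared with PCDHB10 read 623.3 and 666.1, nearly level.

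PCDHB2, PCDHB3 and PCDHB4, which lie next to each other ahead of PCDHB5, read level or lower. PCDHB2 read 593.4 and 554.3. PCDHB3 read 465.8 and 462.8, a log2 ratio of -0.0093 that was 0.036 once a loess had removed the trend of the ratio with signal; its other probe sets stayed below the floor, at 71.2 and 206.4 and at 20.3 and 28. PCDHB4 read 388.2 and 220, 1.76-fold lower, and its second probe set went the same way, from 237.4 to 99.8. PCDHB1, PCDHB8, PCDHB11 and PCDHB15 stayed below the floor on both arrays, with signals of 8.6 to 126.1. In chromosome order, the 8 measured beta genes from PCDHB5 on all read higher in the deposited values, and 0 of the 3 before it did. That division was noticed in these values, it rests for PCDHB3 on a ratio near 0, and no test of it was possible. It also counts PCDHB7, PCDHB9 and PCDHB12, which reached the floor in the clone only and so could only read higher. The 8 beta genes above the floor on both arrays had a median log2 ratio of 0.29. Of all 11 measured beta genes 8 read higher, the 3 measured in the clone only included, against 47.1% of all measured genes. With a loess 9 of 11 read higher. The count was 10 of 11 with the arrays rescaled on the hybridisation spikes and 2 of 8 on the poly-A spikes. Relative to the median of all genes the counts were 9 of 11 as deposited, 9 of 11 on the hybridisation spikes and 5 of 8 on the poly-A spikes.

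**Figure D3:**
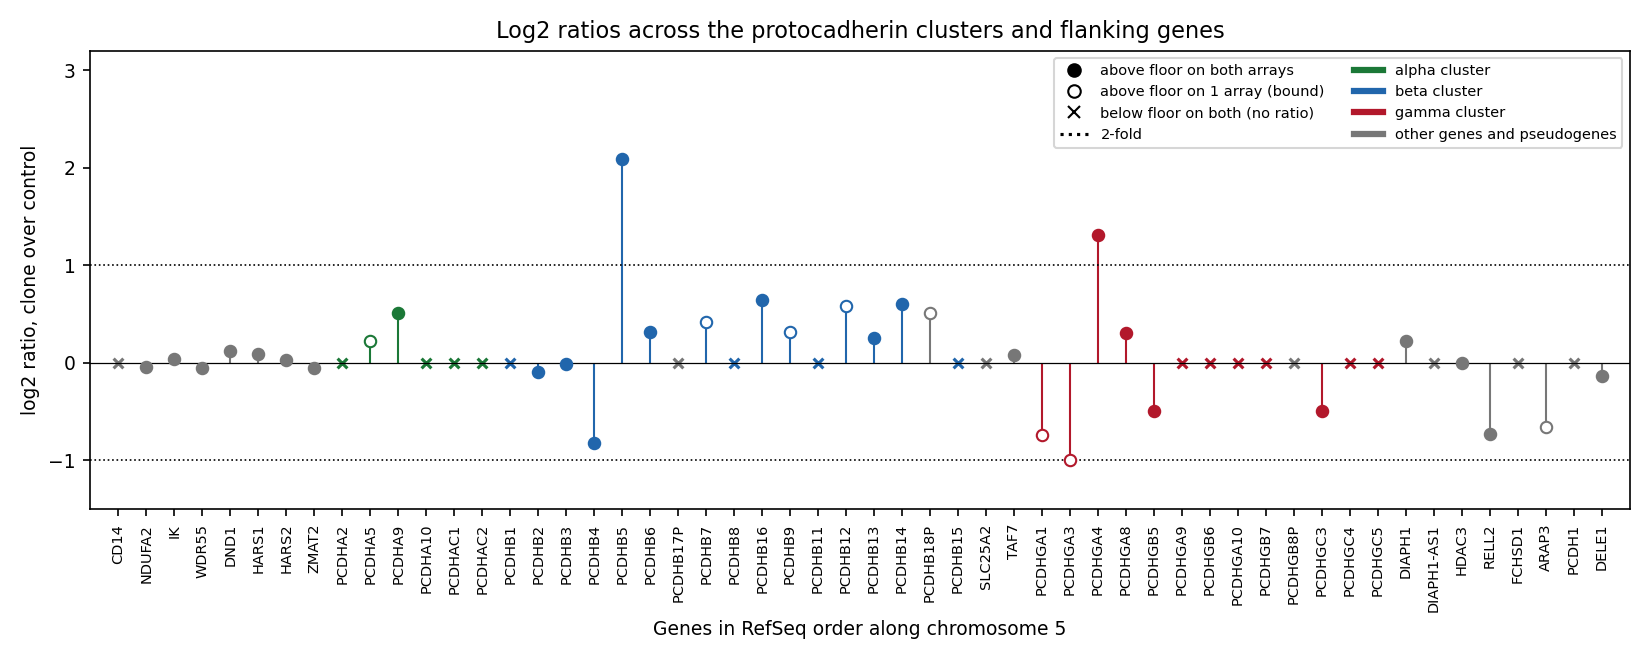
Log2 ratio of the clone over the control (y axis) for protocadherin genes, pseudogenes and flanking genes in RefSeq order along chromosome 5 (x axis); filled points were above the floor on both arrays, open points are bounds, and crosses at 0 mark genes below it on both. PCDHB5 (2.09) and PCDHGA4 (1.31) lie beyond the dotted 2-fold lines, and the flanking genes before the alpha cluster stay between -0.056 and 0.12.

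In the gamma cluster 2 genes read higher and 4 lower, where 47.1% of all measured genes read higher. Of the lower genes, PCDHGA1 and PCDHGA3 reached the floor in the control only by their brightest probe sets. Those 2 could thus only read lower. PCDHGA4, a gamma protocadherin of the A type, read 507.5 and 1255.7, 2.47-fold higher, with a log2 ratio of 1.31. PCDHGA8, of the same type, read 532.6 and 657.5, 1.23-fold higher. PCDHGA4 kept a log2 ratio between 0.70 and 1.81 over the settings; the lowest value came with rescaling on the poly-A spikes and ended its 2-fold call.

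The lower gamma genes were PCDHGA1, PCDHGA3, PCDHGB5 and PCDHGC3. PCDHGA1 read 347.6 and 142.7, at least 1.67-fold lower. PCDHGA3 read 415.7 and 191.3, a bound of -0.999 on the log2 scale that fell just short of 2-fold lower, and its second probe set read 277 and 220. PCDHGB5 read 547.2 and 388.5, 1.41-fold lower. PCDHGC3, a C-type gene whose variable exon lies nearest the constant exons of the measured gamma genes, read 726.4 and 517, 1.41-fold lower, and 218.8 and 65.6 on its other probe set. On the brightest probe sets of PCDHGA1 and PCDHGA3 the clone signals were below the floor. The floor probe sets were also dimmer on the clone array, and their part in these bounds was not tested.

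The lower and higher gamma genes also differed in kind of probe set. By their brightest probe set all 4 lower genes were read with an x or s suffix, which marks probes shared with other transcripts, and both higher genes without it. The other probe set of PCDHGC3, at 218.8 and 65.6, has no suffix and also read lower. Over the 19 measured genes of all clusters the median log2 ratio was -0.0093 on the 9 suffixed probe sets and 0.46 on the 10 others. Without suffixed probe sets 3 gamma genes were measured, 1 of them lower, and their median log2 ratio was 0.30, in place of -0.49. With suffixed probe sets kept, the 4 gamma genes above the floor on both arrays had a median of -0.093. Which transcripts those probe sets detected was not tested. PCDHGA9, PCDHGA10, PCDHGB6, PCDHGB7, PCDHGC4 and PCDHGC5 gave no signal above the floor, at 5.3 to 175.5; the highest of these was PCDHGA10, at 30.1 in the control and 175.5 in the clone.

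Of the alpha genes with a probe set of their own, PCDHA9 and PCDHA5 were measured. PCDHA9 read 370.9 and 528.7, 1.43-fold higher. PCDHA5 read 71.1 and 242.9, at least 1.17-fold higher, and its probe set has the x suffix. PCDHA2, PCDHA10, PCDHAC1 and PCDHAC2 stayed under the floor throughout, at 11.8 to 167.9. PCDHAC1 and PCDHAC2 are the C-type alpha genes, next to the constant exons.

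The probe sets shared by the whole alpha cluster went the other way. There were 3 probe sets annotated to all 15 alpha genes, as sequence in the constant exons would be, and all 3 read lower in the clone. Probe set 223435_s_at read 1921.1 and 977.3, 1.97-fold lower. Probe set 224212_s_at read 792.4 and 342.7, 2.31-fold lower. Probe set 210674_s_at read 842.4 and 757.5, 1.11-fold lower. Their log2 ratios were -0.98, -1.21 and -0.15, with an SD of 0.55 among them, wider than the pooled 0.35 between probe sets of a gene. Among probe sets naming several genes, 58.7% read lower and 1.9% were at least 2-fold lower. Beside these lower readings stand only the 2 alpha genes measured on their own probe sets, both higher. PCDHA5 reached the floor in the clone only, so it could only count as higher, and only PCDHA9 reached it on both arrays. With the floor at the 75th percentile 4 alpha genes were measured, 2 higher and 2 lower, the latter being PCDHAC1 (167.9 and 138.3) and PCDHAC2 (117.3 and 70.3). PCDHAC2 reached that floor of 116.9 narrowly and in the control only, so it could only count as lower. Rescaled on the poly-A spikes, PCDHA9 alone was measured and its log2 ratio was -0.099. For 9 other alpha genes no probe set of their own was named here.

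Of all 10 shared probe sets 5 were above the floor, 4 of them lower in the clone, with a median log2 ratio of -0.61. Of the gamma probe sets named in the annotation used, the one listing the most genes, 211876_x_at, names 7 and read 590.7 and 387.5, 1.52-fold lower. Probe sets without a gene symbol there were not used, so the gamma constant exons are not analysed here beside those of the alpha cluster. Probe sets shared by PCDHGA11 and PCDHGC3 and by PCDHGC5 and PCDHGC3 were below the floor, at 82.4 and 10.8 and at 26.4 and 8.7. Those shared by PCDHA2 and PCDHA3 or by PCDHA5 and PCDHA6 were also below it, from 8 to 71.1.

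**Figure D4:**
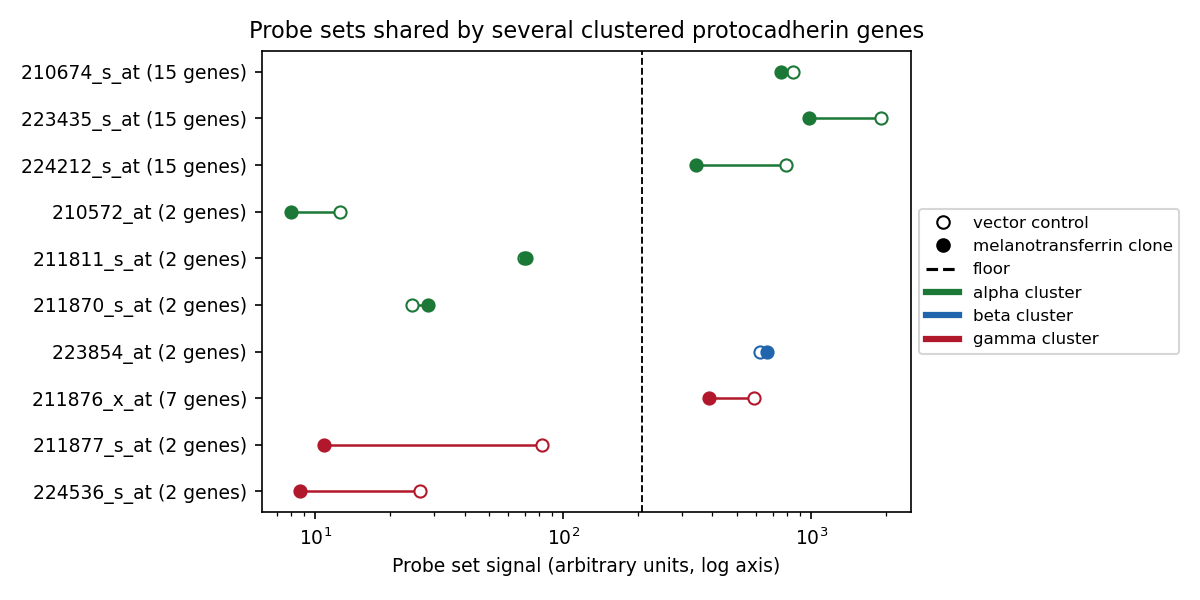
Signal on a log axis of the 10 probe sets annotated to several protocadherin genes, open for the vector control and filled for the clone; the dashed line is the floor of 208 and the labels give the number of genes named. The 3 probe sets for 15 alpha genes lie above the floor and read lower in the clone.

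Of the 8 genes flanking the clusters on the alpha side, 7 were measured, with log2 ratios from -0.056 (ZMAT2) to 0.12 (DND1). Between the beta and gamma clusters TAF7, a subunit of the general transcription factor TFIID, read 10403.8 and 10992.6, and SLC25A2, a mitochondrial ornithine carrier, was below the floor at 153.2 and 165.6. On the gamma side 5 of 8 were measured, from -0.73 (RELL2) to 0.23 (DIAPH1, a formin), with a median of -0.14. ARAP3 read 327.9 and 85.6, at least 1.58-fold lower, and this bound would be larger with a lower floor. Of these 18 genes 13 were measured, and 0 of the 13 passed 2-fold by the floor of 208. Among all measured genes 1.21% passed 2-fold higher and 1.9% lower, so a count of 0 in a list this short is near that share.

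Of 24 listed genes that act on these promoters 23 had a value. All 23 were measured, against 64% of all named genes, with a median log2 ratio of 0.039. Of the 23, 0 passed 2-fold, near the shares of 1.21% higher and 1.9% lower among all measured genes. CTCF, which binds the promoters and their enhancers, read 5461.6 and 5882.3. Cohesin loops promoters to enhancers: its subunit RAD21 read 24748.4 and 21288.5, SMC3 read 6524.8 and 9803.8, the highest ratio of the list at 0.59, and the loader NIPBL read 3681.6 and 4240. SMCHD1, which represses clustered protocadherins, read 2761.3 and 2837.5. DNMT3B, a DNA methyltransferase that methylates these promoters, read 1301 and 1276.4. WIZ, a zinc finger partner of histone methyltransferases, had the lowest ratio, -0.54.

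Partners of the cytoplasmic tails and related signalling genes were as close to level. Of 21 listed, 18 were measured, 8 higher and 10 lower, with a median of -0.011. The count past 2-fold was 0, again near the shares of 1.21% higher and 1.9% lower among all measured genes. The tails bind and inhibit the kinases PTK2 (FAK) and PTK2B (PYK2), which read 12998.3 and 12987.8, and 424.1 and 344.4. PDCD10, which binds gamma protocadherin tails, read 13294.9 and 13108.3. The receptor kinase RET, reported in complexes with them, read 227.5 and 130.6, a bound near level. The range of the list ran from -0.36 (NCKAP1) to 0.49 (PRKCA).

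**Figure D5:**
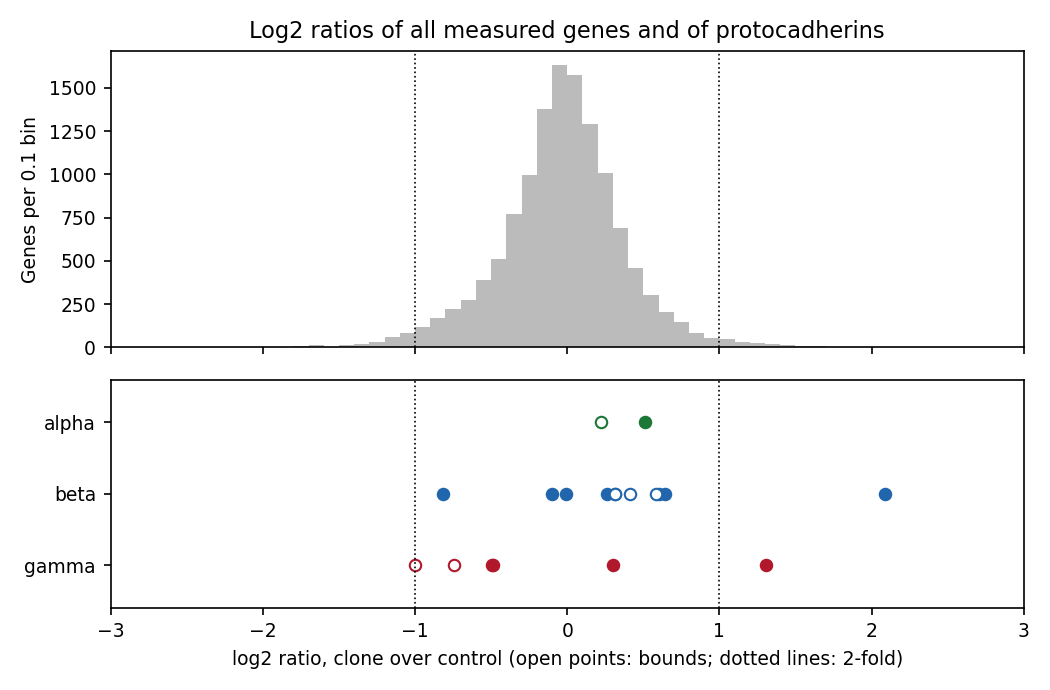
Upper panel, number of genes per 0.1 bin of log2 ratio for all 12663 measured genes; lower panel, the 2 alpha, 11 beta and 6 gamma genes measured, with open points for bounds and dotted lines at 2-fold. PCDHB5 (2.09) and PCDHGA4 (1.31) lie outside the 2-fold lines, and the other 17 genes lie inside them.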

How the data were processed

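Total RNA from 2 stably transfected SK-N-MC lines was read on Affymetrix U133 Plus 2.0 arrays, 1 array per group. The deposited values are linear intensity values (signals) per probe set, made with GCOS 1.3, as named in the submitters' processing notes; how probes were summarised and scaled is not given in the sources used here, and no detection calls were used. The deposited arrays had equal trimmed means (1000.12), so a change shared by most transcripts cannot be seen. Of 54675 probe sets, 41097 had 1 gene symbol in the 2016 platform annotation, 1801 several and 11777 none; symbols were updated through RefSeq (GRCh38.p14), which matched 41043. Gene coordinates are not given, since the array data state no build; promoter windows are RefSeq's. The floor, the bounds and the 2-fold size were as stated in the text. Every measured member and shared probe set is named; regulators, partners and flanking genes are named where well known, past 2-fold or at an extreme of their list, the last chosen after values were seen. Members and lists were chosen with earlier results of these data known. Scripts ran under Python 3.11.15, numpy 2.4.6, pandas 2.3.3 and statsmodels 0.14.6, and were tested on simulated data. The simulated differences were placed only in genes well above the floor, so genes near it were not covered. Alternatives covered the floor, array scaling, choice of probe sets and a pseudocount of 100. The number of arrays limits the precision.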

Additional observations from a re-analysis of the deposited data

Results flagged for a closer look

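The pseudogene PCDHB18P, which lies between PCDHB14 and PCDHB15 and is not among the members, gave 68.5 in the vector control against 295.5 in the clone, read on a probe set with the x suffix. It was picked out because the signal crossed the floor in the clone only. Its other probe set read 18.8 and 129.8, below the floor on both arrays. Whether the x-suffixed probe set also reads neighbouring beta genes was not tested.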

How the results depend on the processing

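No paired analysis was possible because each group is 1 array; leaving out an array was not possible for the same reason. Without probe sets of x or s suffix, 13 single-gene protocadherin probe sets were above the floor, in place of 23. The 2 genes at least 2-fold higher became 6 with the floor at the 75th percentile, 6 centred on the hybridisation spikes, 1 (PCDHB5) centred on the poly-A spikes and 5 with a pseudocount of 100. The 0 genes at least 2-fold lower became 2 with the floor at the 75th percentile and 2 with a floor per array (PCDHGA1 and PCDHGA3 both times), and 2 centred on the poly-A spikes (PCDHGB5 and PCDHGC3). The median log2 ratio of the measured genes went from 0.30 to 0.78 on the hybridisation spikes and reversed to -0.35 on the poly-A spikes. The shared probe sets' median went from -0.61 to -0.11 and -1.22 on the same scalings; these offsets follow from the rescaling itself. PCDHB5 passed 2-fold in all 10 settings, the deposited values included. Its 1 probe set has no suffix and lies above each floor. The other floors and choices of probe sets therefore could not change its log2 ratio of 2.09.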
